A study of Homo sapiens with 3 samples.

Results

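CTH, PSAT1 and ASNS encode 3 enzymes that let human cells make amino acids of their own: cysteine, serine and asparagine. The genes were taken by name from the platform annotation, which gave 1 probe set to each, and they are 3 of the 8868 protein-coding genes compared. They were chosen by their differences between these same arrays, so the levels and differences below are a description and carry no test. Expression was measured in MDA-MB-231, an established human line of triple-negative breast cancer. The groups were cells kept for 72 h with 10 µM Mt-CFX, with 10 µM CFX, or with 1% DMSO as the vehicle control. The title of the series speaks of ciprofloxacin, a fluoroquinolone antibiotic, and Mt-CFX is known here by its code name. DMSO is stated in the labels for the control only. In a difference from the control, DMSO and compound therefore cannot be told apart. With n = 1 array in each group there is no replicate error, no interval can be given, and no p-value was computed.

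Non-essential amino acids are made from intermediates of glycolysis and the citric acid cycle, or from other amino acids. When amino acids run short or other stresses phosphorylate the translation factor eIF2, the transcription factor ATF4 is made and switches on genes for amino acid synthesis, uptake and tRNA charging. PSAT1, phosphoserine aminotransferase, carries out the middle of the steps from 3-phosphoglycerate to serine. CTH, cystathionine gamma-lyase, makes cysteine in the last step of transsulfuration and can also release hydrogen sulfide. ASNS, asparagine synthetase, moves an amide group from glutamine onto aspartate. CTH and PSAT1 work with pyridoxal phosphate, the cofactor form of vitamin B6, while ASNS uses ATP.

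The promoters of the 3 genes are shown because ATF4 pairs with C/EBP proteins on a composite site, whose core is written here as TGATGNAA. RefSeq windows on GRCh38.p14 run from 250 bases before the annotated start to 50 bases after it. The array's own build is not given in the sources used here, and these coordinates come from RefSeq alone. CTH has 1 window on the plus strand of chromosome 1 (chr1:70411018-70411317), PSAT1 has 1 on the plus strand of chromosome 9 (chr9:78296875-78297174), and ASNS has 2 on the minus strand of chromosome 7, of which the upstream one is printed (chr7:97872359-97872658). Each is written 5′ to 3′ in the direction of the gene, and capitals mark matches to the motifs searched.
CTH: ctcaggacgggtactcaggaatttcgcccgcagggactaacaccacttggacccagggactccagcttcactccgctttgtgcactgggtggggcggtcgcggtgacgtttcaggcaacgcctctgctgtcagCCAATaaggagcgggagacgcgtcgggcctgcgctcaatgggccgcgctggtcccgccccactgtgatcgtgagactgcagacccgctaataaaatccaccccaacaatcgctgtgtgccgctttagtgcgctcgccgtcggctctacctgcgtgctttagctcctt
PSAT1: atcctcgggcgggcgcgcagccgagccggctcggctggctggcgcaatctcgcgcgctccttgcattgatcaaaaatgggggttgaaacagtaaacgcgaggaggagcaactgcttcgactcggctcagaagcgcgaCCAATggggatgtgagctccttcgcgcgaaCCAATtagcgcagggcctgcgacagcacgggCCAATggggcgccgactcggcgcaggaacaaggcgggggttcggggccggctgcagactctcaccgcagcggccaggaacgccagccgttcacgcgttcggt
ASNS: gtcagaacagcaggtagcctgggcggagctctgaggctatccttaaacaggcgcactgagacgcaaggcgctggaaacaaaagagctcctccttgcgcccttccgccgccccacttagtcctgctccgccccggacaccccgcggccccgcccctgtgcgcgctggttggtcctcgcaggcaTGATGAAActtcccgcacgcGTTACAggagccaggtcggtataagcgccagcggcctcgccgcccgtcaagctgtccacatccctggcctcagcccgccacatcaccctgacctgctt

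The composite core was found once among these windows, in ASNS, as TGATGAAA from 68 to 61 bases before the start. This stretch belongs to the element long known as the nutrient-sensing response element of ASNS. The letters GTTACA, the partner element described for the same promoter, stood from 48 to 43 bases before the start. The windows of CTH and PSAT1 and the downstream ASNS window held 0 matches to the core on either strand. CTH held 1 CCAAT, the motif of the factor NF-Y, from 117 to 113 bases before its start. PSAT1 held 3 of them, the first from 113 to 109, the next from 83 to 79 and the last from 52 to 48 bases before its start, and ASNS held 0. The cyclic AMP response element TGACGTCA and the TATA box letters TATAAA were found in none of these windows. Among all 35116 RefSeq windows, searched on both strands, the core was in 3.62%, TGACGTCA in 1.85%, TATAAA in 11.5%, CCAAT in 34.6% and GTTACA in 6.66%. CCAAT and GTTACA were added after the promoter letters had been seen, and none of the motifs overlapped another in these windows. A match is a run of letters and not a measured binding site, and sites outside the windows were not searched.

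**Figure D1:**
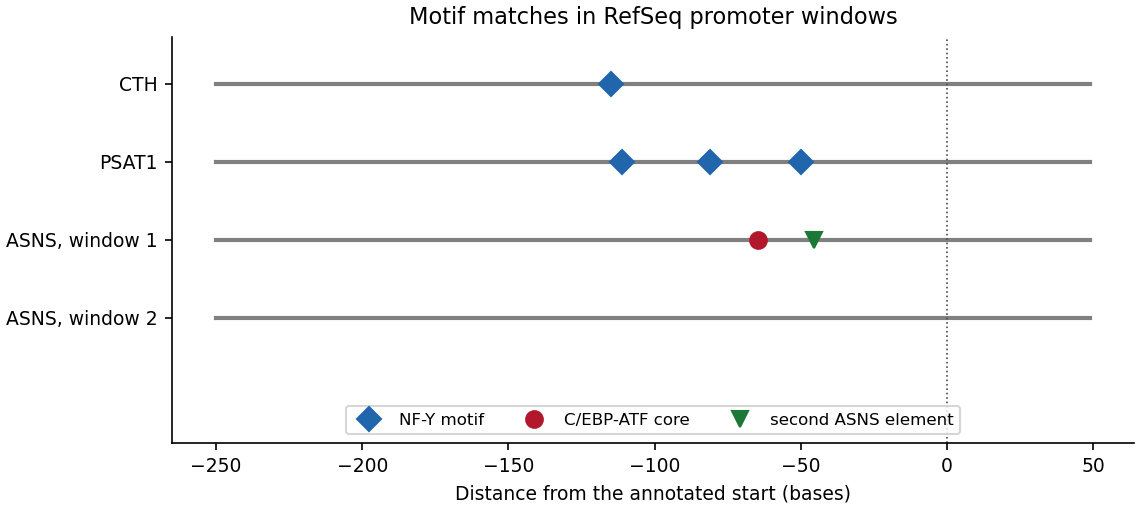
Motif matches along the promoter windows of CTH, PSAT1 and ASNS (2 windows), by distance in bases from the annotated start, which is the dotted line. The core of the composite C/EBP-ATF site lies in the upstream ASNS window, beside the second ASNS element, and NF-Y motifs lie in CTH (1) and PSAT1 (3).

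The arrays gave each of the 3 genes a value well above the floor of 3.89 log2, the median of all values, and all 3 genes had their highest value with Mt-CFX and their lowest in the control. The value of each member on each array was carried by 0 other probe sets. This bears on how far the differences can be read, because the 53617 probe sets took only 19019 to 19569 distinct values per array, and 45.3% of the genes compared were equal on all 3 arrays. Exactly equal were 4691 genes for Mt-CFX over control, 5248 for CFX over control and 4851 for Mt-CFX over CFX. The median difference of all genes compared, 0.00 in each, therefore reflects ties. The lowest reading of any of the 3 enzymes, that of CTH in the control, lay 2.12 log2 above the floor.

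CTH (gene ID 1491) had a log2 value of 7.89 with Mt-CFX, 6.68 with CFX and 6.01 in the DMSO control. The CFX array lay between the other arrays for this gene. Mt-CFX lay 1.89 log2 above the control, which is 3.70-fold, and CFX lay 0.67 log2 above the control, which is 1.59-fold. In the order of all genes compared, CTH stood at place 6 from the highest with Mt-CFX and at place 3 with CFX. Between the compounds, Mt-CFX lay 1.22 log2 or 2.32-fold above CFX.

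PSAT1 (gene ID 29968) had a log2 value of 10.96 with Mt-CFX, 10.35 with CFX and 9.95 in the DMSO control. Its CFX difference from the control was 39.4% of its Mt-CFX difference in log2, beside 35.5% for CTH and 14.4% for ASNS. Its steps were thus the most even of the 3 enzymes, though close to those of CTH. Mt-CFX lay 1.01 log2 or 2.01-fold above the control, and CFX 0.40 log2 or 1.32-fold. PSAT1 was at place 27 with Mt-CFX, the last of the 27 genes at least 2-fold higher, just before UNC5B at 1.98-fold. With CFX it was at place 44. Mt-CFX exceeded CFX by 0.61 log2, a 1.53-fold difference.

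ASNS (gene ID 440) had a log2 value of 8.82 with Mt-CFX, 7.81 with CFX and 7.64 in the DMSO control. Here the CFX array stood close to the control and the Mt-CFX array stood apart from both. Mt-CFX lay 1.18 log2 or 2.27-fold above the control, at place 18 of all genes, and CFX lay 0.17 log2 or 1.12-fold above it, at place 426. Mt-CFX exceeded CFX by 1.01 log2, which is 2.02-fold and place 23, the last of the 23 genes at least 2-fold higher in that comparison.

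**Figure D2:**
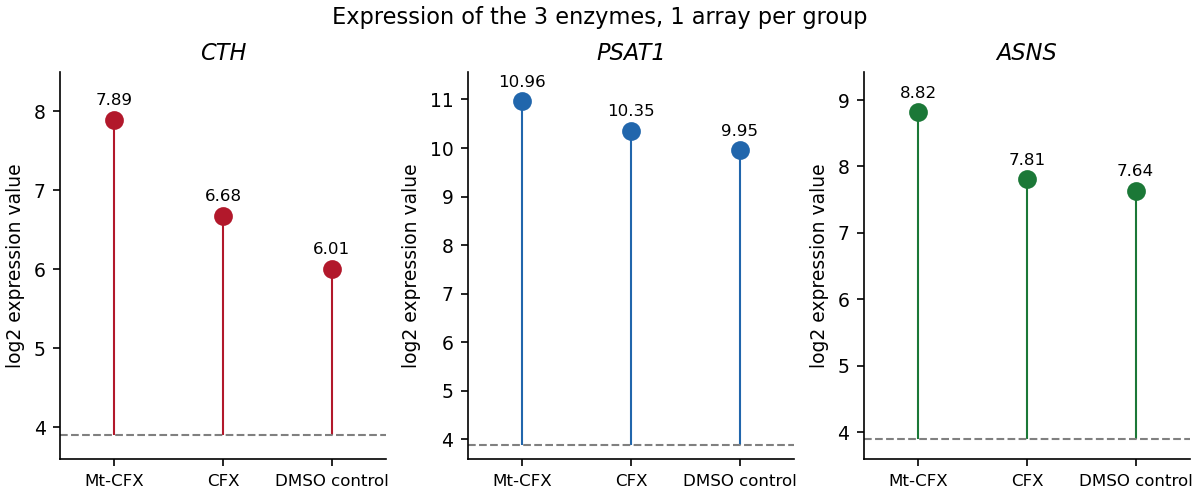
Log2 expression values of CTH, PSAT1 and ASNS on the Mt-CFX, CFX and DMSO control arrays, 1 array per group, with a vertical scale of its own for each gene. Stems rise from the dashed floor of 3.89 log2, and in every panel the Mt-CFX point is highest and the DMSO control point lowest.

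The order of the enzymes differed between the compounds. With Mt-CFX over control the order of differences was CTH, ASNS, PSAT1, with CTH ahead of ASNS by 0.71 log2 and ASNS ahead of PSAT1 by 0.17 log2. With CFX over control it was CTH, PSAT1, ASNS, with CTH ahead of PSAT1 by 0.27 log2 and PSAT1 ahead of ASNS by 0.23 log2. With 1 array per group, whether neighbours in either order differ beyond the spread of repeats was not tested. Both sets of differences use the same control array, so an error of that array enters both.

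At the 2-fold size, 3 of the 3 enzymes were higher with Mt-CFX than in the control, beside 0.304% of all genes compared. With CFX over control the count was 0 of 3, beside 0.0226% of all genes, and at the 1.5-fold size it was 1 of 3 (CTH), beside 0.0451%. With Mt-CFX over CFX, both compounds at 10 µM and 72 h, 2 of 3 were at least 2-fold higher (CTH and ASNS), beside 0.259%, and 3 of 3 at least 1.5-fold higher, beside 1.13%. The genes were chosen on these contrasts, so nothing is read from these counts against their backgrounds. CTH was the only gene compared that was both 1.5-fold higher with CFX and 2-fold higher with Mt-CFX. In these bulk samples, more cells with an active gene and more RNA per cell cannot be told apart.

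In serine synthesis the 3 consecutive enzymes were all higher with Mt-CFX, and PSAT1 by the widest margin. PHGDH, the dehydrogenase that opens the route, had log2 values of 7.87 with Mt-CFX, 7.28 with CFX and 7.25 in the control, so its difference was 0.62 with Mt-CFX and 0.03 with CFX. PSPH, the phosphatase that releases serine, had values of 7.98, 7.78 and 7.51 on the Mt-CFX, CFX and control arrays, with differences of 0.48 and 0.27 for Mt-CFX and CFX over control. PHGDH, like ASNS, had a CFX value close to the control, while PSPH, like PSAT1, had an intermediate one. Of the enzymes that turn serine into glycine and a one-carbon unit, the mitochondrial SHMT2 differed by 0.31 with Mt-CFX and −0.05 with CFX, and the cytosolic SHMT1 by −0.17 with Mt-CFX and 0.00 with CFX. The list of 5 genes had a median difference of 0.48 log2 with Mt-CFX and 0.03 with CFX, beside 0.00 for all genes compared in both. Counted at 1.5-fold with Mt-CFX, 2 of 5 were higher, beside 1.45% of all genes, and 0 were lower, beside 1.25%. The 2 were PHGDH and PSAT1, of which PSAT1 was chosen on this contrast and also enters the median.

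Around CTH, by contrast, the route held little else of that size. CBS, which makes cystathionine in the step before CTH, had a log2 value of 4.56 on each of the 3 arrays. Such a tie is limited as a measurement, since 245 other probe sets on the Mt-CFX array and 265 on the control array carried the same value. AHCY, which yields homocysteine, differed by −0.03 with Mt-CFX and 0.00 with CFX, and MTR, which returns homocysteine to methionine, by −0.36 and −0.14. Of 24 listed genes of the methionine cycle, transsulfuration and sulfide metabolism, 17 were above the floor, and of these CTH, chosen on these contrasts, was the 1 gene at least 1.5-fold higher with Mt-CFX, beside 1.45% of all genes, and with CFX, beside 0.0451%. The median of this list was 0.00 in each comparison, the same as that of all genes. With Mt-CFX over control 10 of the 17 were exactly equal, so this median too reflects ties. SQOR, a mitochondrial enzyme that oxidises hydrogen sulfide, differed by −0.37 with Mt-CFX and 0.13 with CFX, and ETHE1, which acts after it, by 0.29 and −0.18. Of the listed genes of cystine uptake and glutathione, GSS, the glutathione synthetase gene, differed by 0.11 with Mt-CFX and 0.00 with CFX. The 6 measured of 13 genes of that list had 0 members past 1.5-fold. With Mt-CFX over control the shares of all genes were 1.45% higher and 1.25% lower, near 0 for a list this short. The cystine carrier genes SLC7A11 and SLC3A2, the genes GCLC and GCLM of the glutathione list, and the gene MAT2A were not analysed here.

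The other measured genes of asparagine, aspartate, glutamate and glutamine had smaller differences than ASNS. ASNSD1, a gene named for its asparagine synthetase domain, differed by 0.15 with Mt-CFX and 0.07 with CFX. ASPG, named as an asparaginase, differed by 0.08 and 0.00. GLUL, the glutamine synthetase gene, had the same value of 5.06 on all 3 arrays, a tie that is limited as a measurement. Of the 14 listed genes 7 were above the floor, of which 1 was at least 1.5-fold higher with Mt-CFX (ASNS, chosen on this contrast), beside 1.45% of all genes, and 0 with CFX, beside 0.0451%. The median was 0.03 in both, beside 0.00 for all genes. GOT1 and GOT2, the aspartate aminotransferase genes, were not analysed here.

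**Figure D3:**
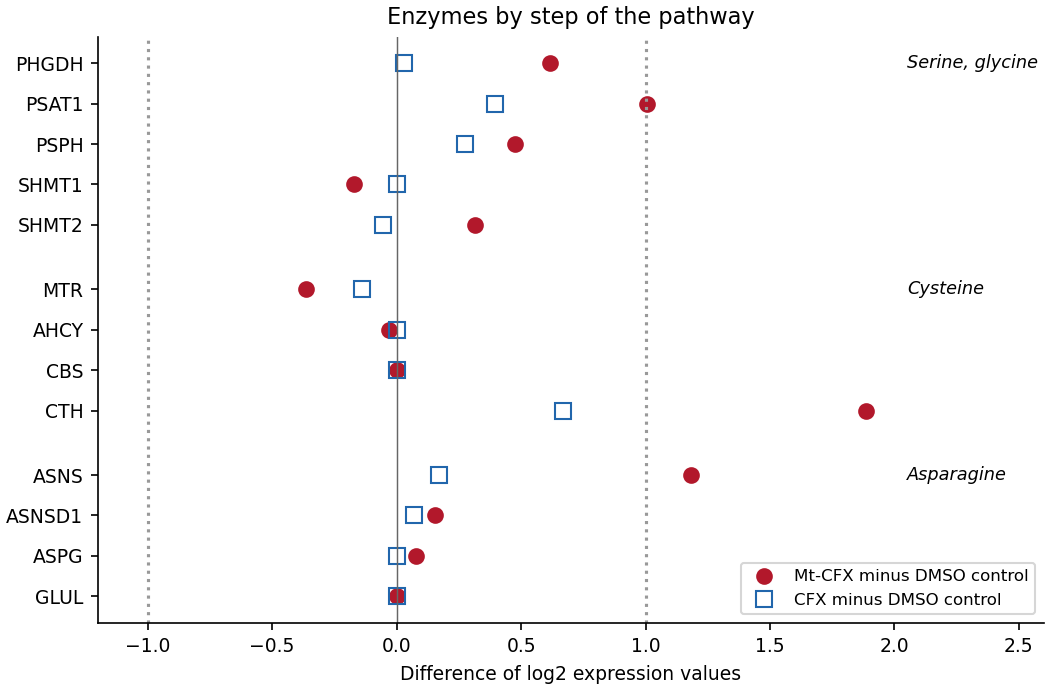
Differences of log2 values from the DMSO control for enzymes ordered by pathway, with Mt-CFX as filled circles and CFX as open squares, 1 array each. Dotted lines mark 2-fold. The consecutive enzymes PHGDH, PSAT1 and PSPH lie to the right with Mt-CFX, while CTH and ASNS lie far to the right of the other enzymes of their routes.

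In the remaining lists of amino acid metabolism few genes came near the 3 enzymes. Among 6 of 14 listed genes of proline, ornithine and arginine metabolism, ASS1, which joins citrulline and aspartate on the way to arginine, was 1.73-fold higher with Mt-CFX than in the control. Its log2 values were 7.83 with Mt-CFX, 6.93 with CFX and 7.03 in the control, so CFX lay slightly below the control, unlike for CTH, PSAT1 and ASNS. Of 18 listed genes of folate one-carbon metabolism, 8 were above the floor. With Mt-CFX over control 0 of these were past 1.5-fold, beside 1.45% of all genes higher and 1.25% lower. TYMS, the thymidylate synthase gene of this list, differed by −0.51 with Mt-CFX and 0.13 with CFX. Of the 84 genes above the floor in all lists, TYMS was the 1 gene at least 1.5-fold lower with Mt-CFX than with CFX. This count is near the share of 1.03% over all genes, so nothing is read from it. Of 15 listed genes of branched-chain and aromatic amino acid breakdown, 6 were above the floor. With Mt-CFX over control 0 of these were past 1.5-fold, beside the shares of 1.45% higher and 1.25% lower. For lists this short, a count of 0 lies near those shares. The median with Mt-CFX over control was 0.10 log2 for the proline list and 0.00 for the folate, glutathione and branched-chain lists, beside 0.00 for all genes. The medians of 0.00 rest on exact ties. Of 46 listed genes for other enzymes around pyridoxal phosphate, the cofactor of CTH and PSAT1, 23 were above the floor, and of these only MOCOS was past 1.5-fold with Mt-CFX, at 1.85-fold higher, beside 1.45% of all genes, and the list's median was 0.00. MTHFD2 and all 20 listed amino acid carriers, SLC1A5, SLC7A5 and SLC38A2 among them, were not analysed here.

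**Figure D4:**
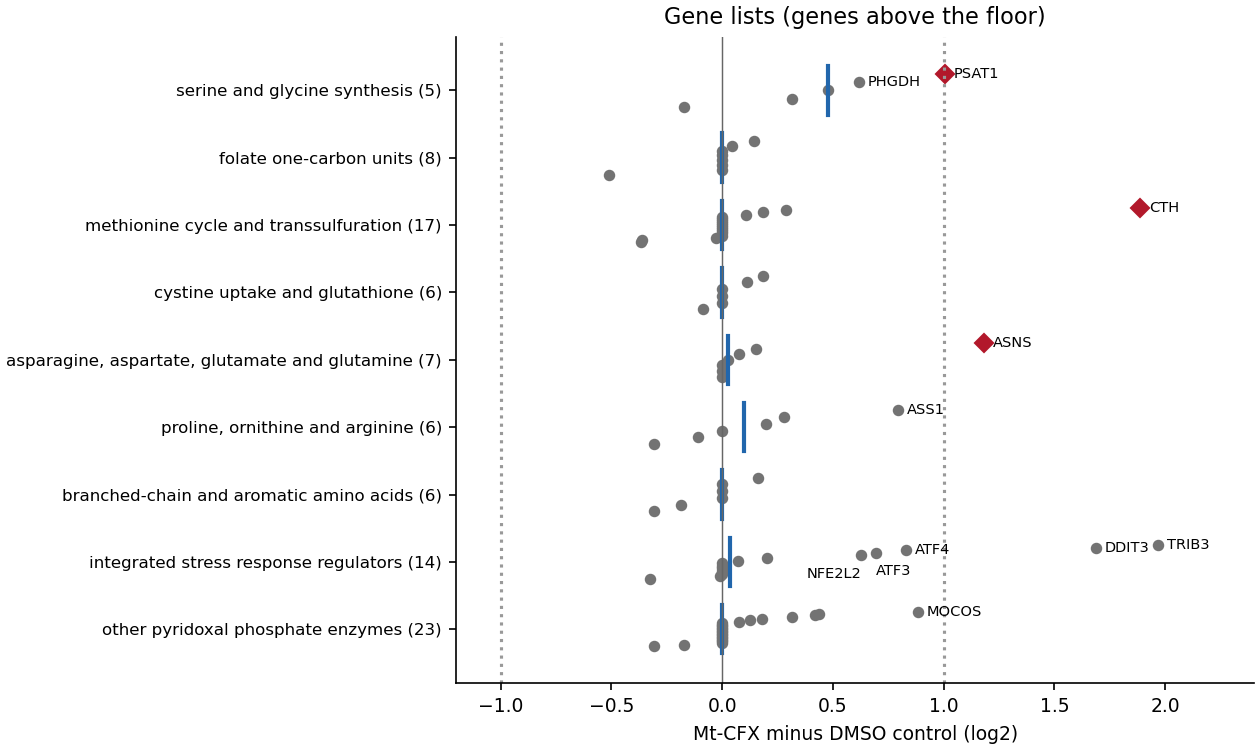
Differences of log2 values between the Mt-CFX and DMSO control arrays for each gene above the floor, by list, with the number of genes in brackets. Diamonds are CTH, PSAT1 and ASNS, blue bars are list medians, dotted lines mark 2-fold, and genes past 1.5-fold are named.

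ATF4, the factor under which these enzymes are usually placed, had log2 values of 8.95 with Mt-CFX, 8.36 with CFX and 8.12 in the control, stepped in the same order as CTH, PSAT1 and ASNS. Its differences from the control, 0.83 with Mt-CFX and 0.24 with CFX, were smaller than those of the 3 enzymes with Mt-CFX, and with CFX lay between those of ASNS and PSAT1. ATF4 is controlled largely at translation, and its protein was not measured. TRIB3, a pseudokinase gene induced by ATF4, differed by 1.97 with Mt-CFX and 0.10 with CFX, though its CFX value was shared with 66 other probe sets. DDIT3, the gene for CHOP, had the value 4.75 with Mt-CFX, against 3.06 with CFX and in the control. The lower value lies below the floor and was shared with 301 other probe sets on the CFX array and 229 on the control array, which leaves the size of the difference uncertain. ATF3, a stress-induced transcription factor gene, differed by 0.69 with Mt-CFX, from a control value shared with 396 other probe sets, and NFE2L2, the gene for the antioxidant regulator NRF2, by 0.63. The eIF2 kinase genes EIF2AK1, EIF2AK2, EIF2AK3 and EIF2AK4 differed by −0.01, 0.07, 0.00 and 0.00 with Mt-CFX. EIF2AK3 and EIF2AK4 were exact ties on all 3 arrays, as were 45.3% of the genes compared, which limits them as measurements. The activity of the kinases was not measured. Of the 14 regulators above the floor, of 20 listed, 5 were at least 1.5-fold higher with Mt-CFX, beside 1.45% of all genes, and the median of the 14 was 0.04 log2. DDIT3, which is among the 5, reached the floor only on the Mt-CFX array and so entered the count through its difference. With the floor set on the mean of the 3 arrays, chosen after seeing the data, it dropped out and 4 of 13 were higher, beside 1.44% of all genes. Over all lists without the 3 enzymes, 8 of 81 genes were at least 1.5-fold higher with Mt-CFX, beside 1.45% of all genes, and 0 were lower, beside 1.25%. With the floor on the mean it was 7 of 80 higher. With CFX 0 were higher, beside 0.0451%, and 0 were lower, beside 0.101%. The 8 genes higher with Mt-CFX were the 5 regulators already counted, with PHGDH, ASS1 and MOCOS. As the lists were chosen with earlier results of these data known, these counts are a description.

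The genes with the most similar pair of differences were named for each enzyme by the distance in the plane of CFX over control and Mt-CFX over control, in log2 units over these 3 arrays. ASNS had near neighbours: TXNRD1 at 0.07, SPX at 0.07, TOM1L1 at 0.10, UPP1 at 0.12 and GFPT1 at 0.18. PSAT1 did as well, with LONRF1 at 0.08, TMEM267 at 0.11, ERRFI1 at 0.11, PCK2 at 0.12 and BET1 at 0.12. CTH had none so close, and the nearest were KDM7A at 0.26, SLFN5 at 0.34, ANKFN1 at 0.36, TRIB3 at 0.58 and DDIT3 at 0.70. The distance between CTH and ASNS was 0.86, between CTH and PSAT1 0.92, and between PSAT1 and ASNS 0.29. The plane is made of differences on which the enzymes were chosen. CTH, at place 6 with Mt-CFX and place 3 with CFX, lies at its edge, where few genes are. Its larger distances therefore restate those places and are no further result. All 5 genes nearest to CTH had a smaller difference with CFX than CTH itself. As CTH stood at place 3 of all genes with CFX, this was nearly fixed in advance. SPX and BET1 were below the floor in the control, and DDIT3 with CFX and in the control.

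**Figure D5:**
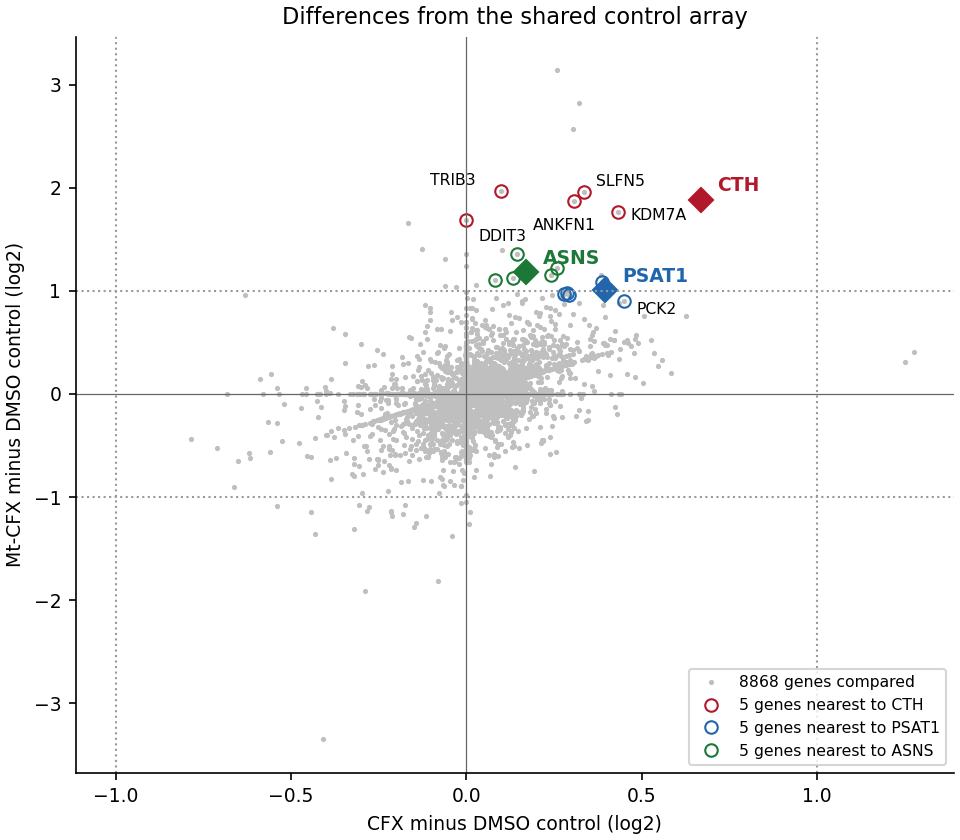
Each of 8868 genes by its log2 difference of CFX (horizontal) and Mt-CFX (vertical) from the DMSO control array, which both axes share. Diamonds are CTH, PSAT1 and ASNS, open circles the 5 genes nearest to each, and dotted lines mark 2-fold. CTH lies at the upper right, at 0.67 and 1.89 log2.

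The genes next to the 3 enzymes on the chromosomes were also looked up. Of 12 protein-coding neighbours, taken as the nearest pair on either side in RefSeq, 7 were measured and 5 were above the floor. Their differences with Mt-CFX over control ran from −0.23 to 0.12 log2. Of all genes compared, only 1.45% were at least 1.5-fold higher and 1.25% lower. Nothing is therefore read from the lack of larger differences among 5 genes. Beside CTH, ANKRD13C was equal on all 3 arrays and SRSF11 differed by 0.12. Beside PSAT1, CEP78 differed by −0.07, and near ASNS, SDHAF3 was equal and LMTK2 differed by −0.23. The exact ties of ANKRD13C and SDHAF3 are limited as measurements. RefSeq lists 4 pseudogenes named after PSAT1, 5 after ASNS and 0 after CTH, and how far the PSAT1 and ASNS probes read such copies was not tested.

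The composite core that ASNS carries was also counted over the genes compared. Of 7341 genes with a RefSeq window, 2.66% held it. Of 108 such genes at least 1.5-fold higher with Mt-CFX than in the control, 13 held it, or 12.0%, and of 89 at least 1.5-fold lower, 3 held it, or 3.37%. Of 23 at least 2-fold higher with Mt-CFX, 2 held it, or 8.70%, namely TMEM154 and ASNS, of which ASNS was chosen on this contrast. The 13 include ASNS, the stress factor gene ATF3 and the aminoacyl-tRNA synthetase genes CARS1, GARS1 and MARS1, whose differences with Mt-CFX were 1.18, 0.69, 0.79, 0.75 and 0.78 log2. The rest of the 13 were TMEM154 at 1.24, TMEM268 at 0.88, RSL24D1 at 0.77 and KLHDC7B at 0.76 log2, with IFRD1 at 0.70, KLF7 at 0.69, NCOA7 at 0.65 and TRAF1 at 0.63. CTH and PSAT1 were among those without it in their windows. These shares were not tested. ASNS, chosen on this contrast, is also among the 13. The floor on the highest array let genes enter through a high Mt-CFX value alone, and the core was not counted with another floor.

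The labelled cell type was checked on marker genes. VIM, CD44, AXL and KRT18, 4 of 4 measured markers of the line, were above the floor on all 3 arrays. Of the 11916 protein-coding genes named, 8868 reached the floor on at least 1 array, so passing it does little to tell cell types apart. Of 4 measured luminal and receptor genes, GATA3 at 5.52 and FOXA1 at 4.36 were also above the floor on all 3 arrays, PGR was below it on all 3, and ESR1 lay at 3.81 to 3.92. ERBB2 was not analysed here. Of markers of other cells, 0 of 3 endothelial, 0 of 2 fibroblast, 1 of 2 leukocyte and 2 of 3 hepatocyte genes reached the floor on any array, and the 1 leukocyte gene, CD68, was 0.25 log2 lower with Mt-CFX. Their part in the differences was not tested.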

How the data were processed

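Trizol was used to extract total RNA, from which biotin-labelled cDNA was made for whole-transcript arrays, per the labels' protocols. Each probe set has a deposited log2 value. These were computed by RMA with Affymetrix Expression Console, as the submitters' processing notes record. The version, annotation release and genome build are not given in the sources used here. RMA equalises the distributions of the arrays, so a difference in total RNA is not visible.

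Of 53617 probe sets, 16098 had 1 gene symbol in the platform annotation and were used. The highest of a gene's probe sets by mean was taken. Protein-coding genes whose highest array reached the median of all values, 3.89 log2, were kept. Differences of log2 values were described with no test, since each group was 1 array, and the number of arrays limits the precision. Differences were also taken with other floors, probe set rules, centrings and sizes. Counting was tested on simulated data. Members, lists and alternatives were chosen with earlier results of these data known. Named were CTH, PSAT1 and ASNS, list genes past 1.5-fold, preset partners, and the 5 genes nearest to each enzyme. Other genes were named after their values were seen: list members beside the enzymes, chromosome neighbours, UNC5B, and genes holding the core. CEBPB, a preset gene, was not analysed here. Promoters came from RefSeq (GRCh38.p14). Python 3.11.15 with numpy 2.4.6, pandas 2.3.3, statsmodels 0.14.6 and matplotlib 3.10.9 was used.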

Additional observations from a re-analysis of the deposited data

How the results depend on the processing

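Averaging a gene's probe sets and median centring left the 9 differences of CTH, PSAT1 and ASNS where they were by construction, since each enzyme had 1 probe set and the median difference was 0, so neither bears on their stability. A lowess curve (span 0.3) left 3 of 9 equal, all of Mt-CFX over control, where the curve was flat at 0, and moved the others by under 0.1 log2 with no change of sign. The lowess curve gave PSAT1 0.37 for CFX over control and 0.65 for Mt-CFX over CFX. Among all genes, 2 were 2-fold higher with CFX, against 0 with the floor on the mean of the 3 arrays, 0 with a floor at the 75th percentile, 6 with genes of every type and 4 at 1.5-fold. The count of genes 2-fold lower with CFX, 0, was 1 with no floor, 1 with every gene type and 9 at 1.5-fold. At 1.5-fold in place of 2-fold, 129 against 27 genes were higher and 111 against 23 lower with Mt-CFX over control, and 100 against 23 higher and 91 against 11 lower with Mt-CFX over CFX. The smaller size or the wider set of genes accounts by construction for the larger counts. The number of listed genes past 1.5-fold was 1 with CFX over control, 11 with Mt-CFX over control and 11 with Mt-CFX over CFX, with no floor and with mean probe sets too, and 1, 10 and 10 with the floor on the mean, added after seeing the data. No paired analysis was possible because each group was 1 array, and no array could be left out. Signal over background was not used here, so the floor alone marks low values.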
